A study of Mus musculus with 3 samples.

Results

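Enzymes that write, copy and erase DNA methylation, and enzymes that write the repressive histone marks of Polycomb and heterochromatin, were followed through RNA-seq libraries of 3 CD8+ T cell subsets of the mouse spleen. The 10 genes Dnmt1, Dnmt3a, Dnmt3b, Uhrf1, Tet1, Tet2, Tet3, Ezh1, Ezh2 and Suv39h1 were taken by symbol from the deposited count table, which holds 25638 genes. All 10 were found, and all 10 had at least 5 CPM (read counts scaled to a common library size) in at least 1 library of every comparison. The groups were effector memory, central memory and naive CD8+ T cells, each 1 library from mouse spleen, and every group was wild type and untreated. The labels give no age or strain, no sorting markers and no number of animals behind a library. With 1 library per group there was no replicate check, so every difference is between single libraries, and no p-value was computed.

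DNA methylation is copied after each round of replication by DNMT1, which is brought to hemimethylated sites by UHRF1, while DNMT3A and DNMT3B place new methylation and the TET dioxygenases oxidise methylcytosine toward its removal. Polycomb repressive complex 2 (PRC2) methylates histone H3 at lysine 27 through EZH2 or EZH1, and SUV39H1 trimethylates lysine 9, the mark of constitutive heterochromatin. In mouse CD8+ T cells DNMT3A, EZH2 and SUV39H1 are known for silencing naive and memory genes during effector differentiation, and TET2 is known to restrain memory formation.

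The promoter windows of Uhrf1, Ezh2, Dnmt1 and Suv39h1, the genes called higher in effector memory than in naive, are shown because each held at least 1 of the forms of the E2F site searched. RefSeq promoter windows on GRCm38.p6, from 250 bases before to 50 bases after a start site, matched all 10 genes with 16 windows. For a gene with several windows, the one with most CpG was used. The forms were searched on both strands, TTTGGCGC, TTTCCCGC, TTTCGCGC and TTTGCCGC. No single form was in all 4 windows. A form was present in the windows of Uhrf1, Ezh2, Dnmt1 and Suv39h1 and in none of the other 6, that is in 4 of 10, beside 3.0% of 16549 gene promoters of the same length. The windows are chr17:56304063-56304362 (+ strand) for Uhrf1, chr6:47594981-47595280 (- strand) for Ezh2, chr9:20952574-20952873 (- strand) for Dnmt1 and chrX:8074312-8074611 (- strand) for Suv39h1. The window of Ezh1, chr11:101226414-101226713 (- strand), is given beside that of its paralog Ezh2. Each is written 5′ to 3′ on the strand of the gene, with the E2F letters in capitals. A match on the other strand appears as its reverse complement.
Uhrf1: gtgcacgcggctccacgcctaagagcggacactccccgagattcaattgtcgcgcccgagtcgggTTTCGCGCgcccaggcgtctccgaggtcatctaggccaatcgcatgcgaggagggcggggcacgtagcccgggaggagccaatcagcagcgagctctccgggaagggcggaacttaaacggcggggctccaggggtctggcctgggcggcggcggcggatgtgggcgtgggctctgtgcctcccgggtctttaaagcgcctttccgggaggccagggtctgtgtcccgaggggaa
Ezh2: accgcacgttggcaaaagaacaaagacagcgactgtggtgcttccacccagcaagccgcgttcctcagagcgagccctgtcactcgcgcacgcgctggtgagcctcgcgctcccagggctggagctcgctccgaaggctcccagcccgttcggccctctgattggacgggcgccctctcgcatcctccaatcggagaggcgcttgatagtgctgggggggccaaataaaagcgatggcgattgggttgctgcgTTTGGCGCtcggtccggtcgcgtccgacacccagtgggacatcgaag
Dnmt1: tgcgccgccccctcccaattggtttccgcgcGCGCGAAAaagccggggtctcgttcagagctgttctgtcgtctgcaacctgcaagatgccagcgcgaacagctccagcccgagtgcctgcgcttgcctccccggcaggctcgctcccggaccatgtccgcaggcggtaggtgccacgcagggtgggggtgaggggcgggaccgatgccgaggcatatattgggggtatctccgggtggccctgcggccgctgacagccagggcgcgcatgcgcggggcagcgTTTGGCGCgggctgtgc
Suv39h1: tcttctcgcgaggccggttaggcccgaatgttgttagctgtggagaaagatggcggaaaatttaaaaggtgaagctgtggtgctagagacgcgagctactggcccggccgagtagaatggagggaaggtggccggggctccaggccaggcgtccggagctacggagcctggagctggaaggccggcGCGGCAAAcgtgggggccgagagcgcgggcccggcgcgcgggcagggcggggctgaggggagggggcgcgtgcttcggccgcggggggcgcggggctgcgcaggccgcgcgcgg
Ezh1: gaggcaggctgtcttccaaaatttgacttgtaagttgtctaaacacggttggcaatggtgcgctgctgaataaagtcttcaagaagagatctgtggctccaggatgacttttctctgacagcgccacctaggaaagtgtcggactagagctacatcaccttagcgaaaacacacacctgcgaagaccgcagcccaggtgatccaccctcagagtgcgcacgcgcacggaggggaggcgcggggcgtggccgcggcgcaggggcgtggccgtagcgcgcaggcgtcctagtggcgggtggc

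The match began at position -185 from the start site in Uhrf1, at position 4 in Ezh2 and at position -64 in Suv39h1. Dnmt1 had 2 matches, at positions -219 and 34. The further windows of Dnmt1, Uhrf1 and Suv39h1, at other start sites, held no match. None of the 5 matches overlapped a match of the other motifs searched. CCAAT was in 4 of 10 windows, beside 38.0% of all promoters. The GC box GGGCGG was in 8 of 10, beside 49.8%. The cell cycle element TTTGAA or TTCGAA was in 1 of 10, that of Dnmt3b, beside 16.8%. The windows held 17 to 57 CpG, against a median of 15 over all promoters (quartiles 4 and 26). Every E2F form searched holds a CpG, so the 3.0% over all promoters is not a background of like CpG content. A background matched for CpG was not computed. These are matches of letters only, factor binding was not measured, and the part of these letters in the levels was not tested.

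The libraries differed widely outside these genes. They held 33087462 counts for effector memory, 35846315 for central memory and 26876909 for naive, and a count of 0 allowed up to 0.0938, 0.0837 and 0.108 CPM in these (3 counts each). Intervals below are 95% counting intervals and, like these floors, cover counting error only. Trbv12-1, a T cell receptor beta variable segment, made up 98.4% of Trbv counts in effector memory and 99.6% in central memory, against 7.13% in naive, so the memory libraries also differed from naive in receptor use, and the labels, which give no transgene, antigen or culture step, do not account for this. The 10 CD8 T cell markers summed to 4067, 6093 and 6723 CPM in effector memory, central memory and naive. Their log2 ratios of effector memory to naive ran from -2.19 to 0.36, with a median of -0.53. Of these markers, Cd3e was at 335, 418 and 395 CPM in the same order of libraries, and Cd8a at 408, 1063 and 1868 CPM. The 8 natural killer cell markers summed to 1587, 586 and 252 CPM, with Ncr1, Klra8 and Klra4 at 0 in effector memory and naive and none at 0 in central memory. The 7 B cell markers summed to 2.81, 6.50 and 35.7 CPM, with 5, 2 and 0 of them at 0, and the 11 myeloid markers to 38.3, 16.5 and 17.5 CPM, with 6, 5 and 4 at 0. Gzma and Nkg7, granule genes that T cells also express, made up 1084 and 411 CPM of the killer cell sum in effector memory. Ncr1, a defining marker, was at 12.2 CPM in central memory. Of the 4 CD4 T cell markers Cd4 was at 0.281, 0.251 and 2.12 CPM, while Zbtb7b, which directs the CD4 lineage, was at 93.6, 37.4 and 1.33 CPM. The 7 erythroid and platelet markers summed to 3.56, 3.10 and 5.32 CPM. The part of other cell types in the results was not tested.

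Proliferation genes rose with both memory states. All 20 DNA replication genes on the list were higher in effector memory than in naive, and 12 of 19 measured ones were higher in central memory than in naive. All 20 mitosis genes were higher in both. Mki67, a marker of cycling cells, was at 1819 CPM in effector memory and 301 CPM in central memory, against 2.62 CPM in naive. Pcna, the sliding clamp of DNA replication, was at 633, 219 and 134 CPM in the same order. The labels, which call all 3 groups untreated, do not account for this difference either, and it cannot be told apart from that between memory and naive cells. Members are set beside these genes below, and the part of proliferation in their levels was not tested.

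Calls rest on size and counting error alone. A called gene reached 5 CPM in either library compared, differed by 2-fold or more, and had an interval that left out 1. In effector memory against naive 4 of the 10 enzymes were higher and 2 lower, where 22.3% and 15.6% of the 10087 genes tested were higher and lower (37.9% in either direction). In central memory against naive 2 were higher and 1 lower, where 11.2% and 5.12% of 9737 genes were (16.3% in either). In effector memory against central memory 5 were higher and 1 lower, where 14.8% and 12.8% of 9975 genes were (27.6% in either). The median log2 ratio of the 10 was 0.06, 0.36 and 0.76 in these comparisons, beside 0.06, 0.14 and -0.06 over all genes tested. The family therefore did not move as a block, and the results lie in which members moved. The same shares over all genes stand beside the counts for the related gene lists below, and no set test was run on these lists. The comparisons share libraries and are not independent of each other. In bulk RNA, fewer cells of a type and less RNA per cell cannot be told apart.

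Scaling bears on the smaller differences. Setting the median of 12 housekeeping genes to be equal, in place of trimmed mean of M values (TMM) scaling, divided every ratio of effector memory to naive by 1.68. It ended the calls of Dnmt1 (1.67-fold) and Suv39h1 (1.60-fold) in that comparison, and called Dnmt3a lower (3.08-fold). It divided every ratio of effector to central memory by 1.43, which ended the calls of Dnmt1 (1.5-fold), Suv39h1 (1.48-fold) and Tet1 (1.44-fold) there and called Dnmt3a, Dnmt3b and Ezh1 lower. The split of all genes moved with it, from mostly higher to mostly lower in both comparisons of effector memory. Effector memory against naive had 1147 genes higher and 3840 lower, against 2247 and 1576 with TMM scaling. Effector against central memory had 784 higher and 2883 lower, against 1479 and 1273, and central memory against naive had 790 higher and 704 lower, against 1092 and 499. The median log2 ratio of all genes shifted by -0.75, -0.52 and -0.23 in these, and by at most -0.12 under the other scalings. Calls of Uhrf1, Ezh2, Tet1 and Tet3 against naive were kept under every scaling tried. Of the 12 housekeeping genes 5 were themselves called higher in effector memory, with Pgk1, a glycolytic enzyme, 21.2-fold higher.

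**Figure D1:**
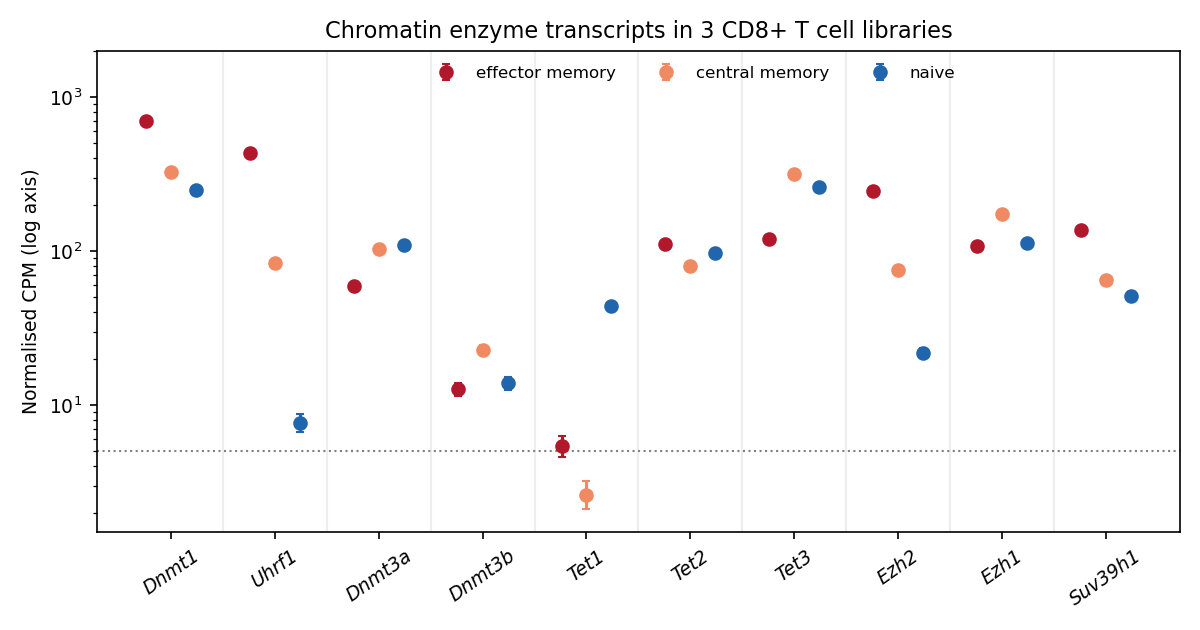
Normalised CPM (log axis) of the 10 enzymes in the effector memory, central memory and naive libraries, 1 point per library with its 95% counting interval; the dotted line is 5 CPM. Uhrf1 and Ezh2 span the widest upward range, at 436 and 245 CPM in effector memory, and Tet1 falls to 5.41 CPM in effector memory and 2.62 CPM in central memory, against 44.2 CPM in naive.

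Among the genes of maintenance methylation, Uhrf1 changed most. Uhrf1 (ENSMUSG00000001228.14, chromosome 17, 56303321 to 56323486) had 13935 counts (436 CPM) in effector memory and 2992 counts (83.5 CPM) in central memory, against 214 counts (7.69 CPM) in naive. Its level was highest in effector memory, intermediate in central memory and lowest in naive, and the counting intervals did not overlap. It was 56.7-fold higher in effector memory than in naive (interval 49.5 to 65.2), with 3.5% of the genes tested above it. It was 10.9-fold higher in central memory than in naive (interval 9.45 to 12.5) and 5.22-fold higher in effector than in central memory (interval 5.01 to 5.43).

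Dnmt1, the maintenance methyltransferase (ENSMUSG00000004099.16, chromosome 9, 20907209 to 20959888), had 22296 counts (697 CPM) in effector memory and 11676 counts (326 CPM) in central memory, against 6938 counts (249 CPM) in naive. The order of libraries was that of Uhrf1, over a narrower range. Dnmt1 was 2.80-fold higher in effector memory than in naive (interval 2.72 to 2.87) and 2.14-fold higher than in central memory (interval 2.09 to 2.19), both calls that ended with housekeeping scaling. The central memory level was 1.31 times the naive one (interval 1.27 to 1.35) and under the 2-fold limit.

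The partners therefore changed unequally, a comparison within each library that no scaling between libraries can alter. Per length of the longest transcript, there were 1.02 Uhrf1 transcripts for each Dnmt1 transcript in effector memory and 0.419 in central memory, against 0.0505 in naive. The ratio of Uhrf1 to Dnmt1 counts was 20.3 times higher in effector memory than in naive (interval 17.7 to 23.3) and 8.31 times higher in central memory than in naive (interval 7.21 to 9.57). Uhrf2, the paralog of Uhrf1, stood at 123 CPM in effector memory, 96.1 CPM in central memory and 94.6 CPM in naive and was not called. Of the counts of both UHRF genes, Uhrf1 made up 78.0% in effector memory and 46.5% in central memory, against 7.52% in naive. Per merged exons these shares were 87.7% in effector memory and 63.7% in central memory, against 14.1% in naive. Per median transcript they were 59.3% and 26.3%, against 3.23% in naive. Uhrf1 was thus the major paralog in effector memory and the minor one in naive with each length, while the order in central memory turned with it.

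The other genes of the methylation machinery were read from a list of partners and cofactors. Of its 8 measured genes outside the 10 enzymes, 4 were higher in effector memory than in naive, 0 were lower and 4 were not called. Over all genes tested there, 22.3% were higher and 15.6% lower. Hells, a remodelling ATPase needed for DNA methylation, was at 153 CPM in effector memory and 37.0 CPM in central memory, against 16.1 CPM in naive. Its fold was 9.54 in effector memory against naive (interval 8.66 to 10.5) and 2.30 in central memory against naive (interval 2.07 to 2.57). Its partner Cdca7 was 5.25-fold higher in effector memory than in naive, and Ahcy, which clears the product of the methyl donor, was 5.44-fold higher. Mat2a, which makes that donor, was at 105 CPM in effector memory and 228 CPM in central memory, against 167 CPM in naive, and was lower in effector than in central memory by 2.17-fold. The deubiquitinase Usp7 was at 219, 246 and 394 CPM in effector memory, central memory and naive and was not called.

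Neither de novo methyltransferase was called in any comparison. Dnmt3a (ENSMUSG00000020661.15, chromosome 12, 3806007 to 3914443) had 1901 counts (59.4 CPM) in effector memory and 3679 counts (103 CPM) in central memory, against 3041 counts (109 CPM) in naive. The effector memory library was the low one, 1.84-fold under naive (interval 1.74 to 1.95) and 1.73-fold under central memory (interval 1.63 to 1.83), and neither difference reached 2-fold. Central memory and naive differed by 1.06-fold (interval 1.01 to 1.12).

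Dnmt3b (ENSMUSG00000027478.15, chromosome 2, 153649450 to 153687730) had 406 counts (12.7 CPM) in effector memory and 816 counts (22.8 CPM) in central memory, against 385 counts (13.8 CPM) in naive. It was thus highest in central memory, where its ratio to naive was 1.65 (interval 1.46 to 1.86), under the 2-fold limit. The ratio of effector memory to naive was 0.918 (interval 0.796 to 1.06), which includes 1. Dnmt3l, the non-catalytic cofactor of these enzymes, had 2 counts in effector memory and 0 in central memory and naive.

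As a share of the 3 DNA methyltransferases per length, Dnmt1 made up 92.9% in effector memory and 77.8% in central memory, against 74.6% in naive. Dnmt3a made up 4.80% and 14.9%, against 19.8% in naive. In raw counts the Dnmt1 share was 90.6% in effector memory (22296 of 24603, exact interval 90.3% to 91.0%), 72.2% in central memory (interval 71.5% to 72.9%) and 66.9% in naive (interval 66.0% to 67.8%). The ratio of Dnmt1 to Dnmt3a counts was 5.14 times higher in effector memory than in naive (interval 4.83 to 5.48) and 1.39 times higher in central memory than in naive (interval 1.31 to 1.47). The share between these genes depends on the length used: with the median transcript length of each gene, Dnmt3a made up 34.8% in effector memory and 64.9% in central memory, against 72.4% in naive.

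**Figure D2:**
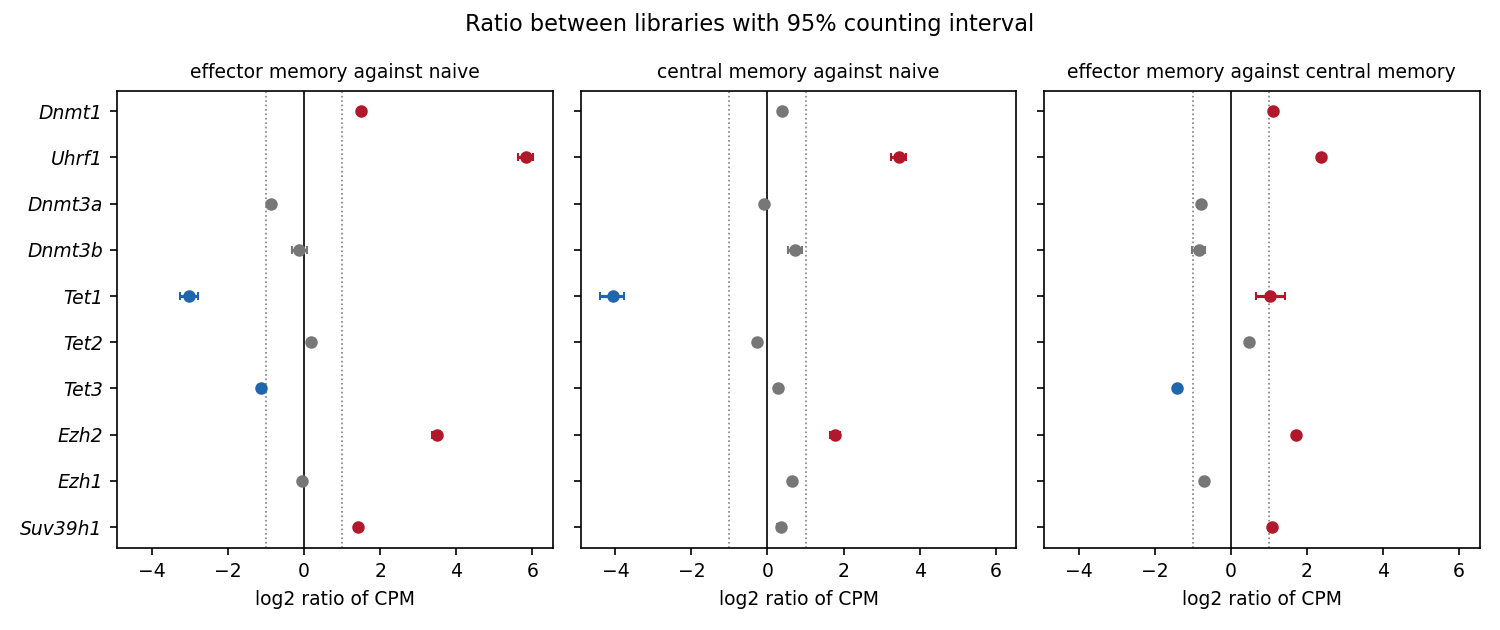
Log2 ratio of CPM between libraries for each enzyme, with its 95% counting interval; red points were called higher, blue points lower and grey points neither, and dotted lines mark 2-fold. Uhrf1 and Ezh2 lie to the right in all 3 comparisons, and Tet1 lies at -3.03 in effector memory against naive and -4.07 in central memory against naive.

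The 3 TET genes had 3 different patterns. Tet1 (ENSMUSG00000047146.17, chromosome 10, 62804570 to 62908996) had 173 counts (5.41 CPM) in effector memory and 94 counts (2.62 CPM) in central memory, against 1230 counts (44.2 CPM) in naive. Both memory libraries were low, and central memory was the lowest. Tet1 was lower in effector memory than in naive by 8.17-fold (interval 6.96 to 9.64) and lower in central memory than in naive by 16.8-fold (interval 13.7 to 21). In central memory against naive 0.8% of the genes tested lay below it. It was 2.06-fold higher in effector than in central memory (interval 1.59 to 2.68), a call that was lost with scaling to total counts (1.99-fold), with housekeeping scaling and at a minimum of 20 CPM.

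Tet2 (ENSMUSG00000040943.12, chromosome 3, 133463679 to 133545139) had 3558 counts (111 CPM) in effector memory and 2869 counts (80.1 CPM) in central memory, against 2716 counts (97.6 CPM) in naive. The libraries lay close together, with ratios of 1.14 for effector memory against naive (interval 1.08 to 1.20) and 0.821 for central memory against naive (interval 0.778 to 0.865). It was not called in any comparison.

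Tet3 (ENSMUSG00000034832.15, chromosome 6, 83362373 to 83459084) had 3804 counts (119 CPM) in effector memory and 11278 counts (315 CPM) in central memory, against 7242 counts (260.3 CPM) in naive. Effector memory was the low library. Tet3 was lower there than in naive by 2.19-fold (interval 2.10 to 2.28) and lower than in central memory by 2.65-fold (interval 2.55 to 2.75). The ratio of central memory to naive was 1.21 (interval 1.17 to 1.25).

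Within the family, per length, Tet3 made up 46.6% of TET transcripts in effector memory and 76.4% in central memory, against 63.5% in naive. Tet2 made up 51.8% in effector memory and 23.1% in central memory, against 28.3% in naive. Tet1 made up 1.61% in effector memory and 0.483% in central memory, against 8.19% in naive. These shares depend on the length used. With the median transcript length, Tet1 made up 11.3% in effector memory and 4.26% in central memory, against 43.9% in naive, where it was then the largest share. Tet3 then made up 30.8% in effector memory and 63.4% in central memory, against 32.0% in naive, so that its shares in effector memory and naive lay close together. The direction of Tet1 was kept with each length, with a lower share in both memory libraries than in naive. The change in a ratio of counts does not depend on length. The ratio of Tet3 to Tet2 counts was 2.49 times lower in effector memory than in naive (interval 2.34 to 2.66) and 1.47 times higher in central memory than in naive (interval 1.39 to 1.57).

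Genes that act after the TET enzymes or beside them were also read. There were 13 measured genes of demethylation and base excision outside the 10 enzymes. In effector memory against naive 4 were higher and 2 lower, beside 22.3% and 15.6% of all genes tested. Tdg, the glycosylase that removes oxidised methylcytosine, was at 98.3 CPM in effector memory and 47.3 CPM in central memory, against 37.1 CPM in naive, 2.65-fold higher in effector memory than in naive. Cxxc5, a CXXC-domain protein that binds CpG, was at 0.969 CPM in effector memory and 4.19 CPM in central memory, against 37.5 CPM in naive. It was lower than in naive by 38.7-fold in effector memory and by 8.95-fold in central memory. Gadd45g, of the growth arrest and DNA damage family, was 19.2-fold higher in effector memory than in naive. Of the same family, Gadd45b was 2.42-fold higher and Gadd45a lower by 5.48-fold in that comparison. Idh1, which makes the TET cosubstrate, was 6.91-fold higher in effector memory than in naive. Idh2 was at 26.9 CPM in effector memory, against 49.7 CPM in naive, and was not called. Of 12 such genes measured in central memory against naive, none was higher and 2 were lower, Cxxc5 and Gadd45a. The shares over all genes there were 11.2% and 5.12%. The 8 methyl-CpG binding genes had 2 higher and 2 lower in effector memory against naive, beside the same 22.3% and 15.6%. None was called in central memory against naive, beside 16.3% of all genes. Mbd4, which is also a glycosylase, was 2.42-fold higher and Zbtb4 4.51-fold lower in effector memory than in naive.

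**Figure D3:**
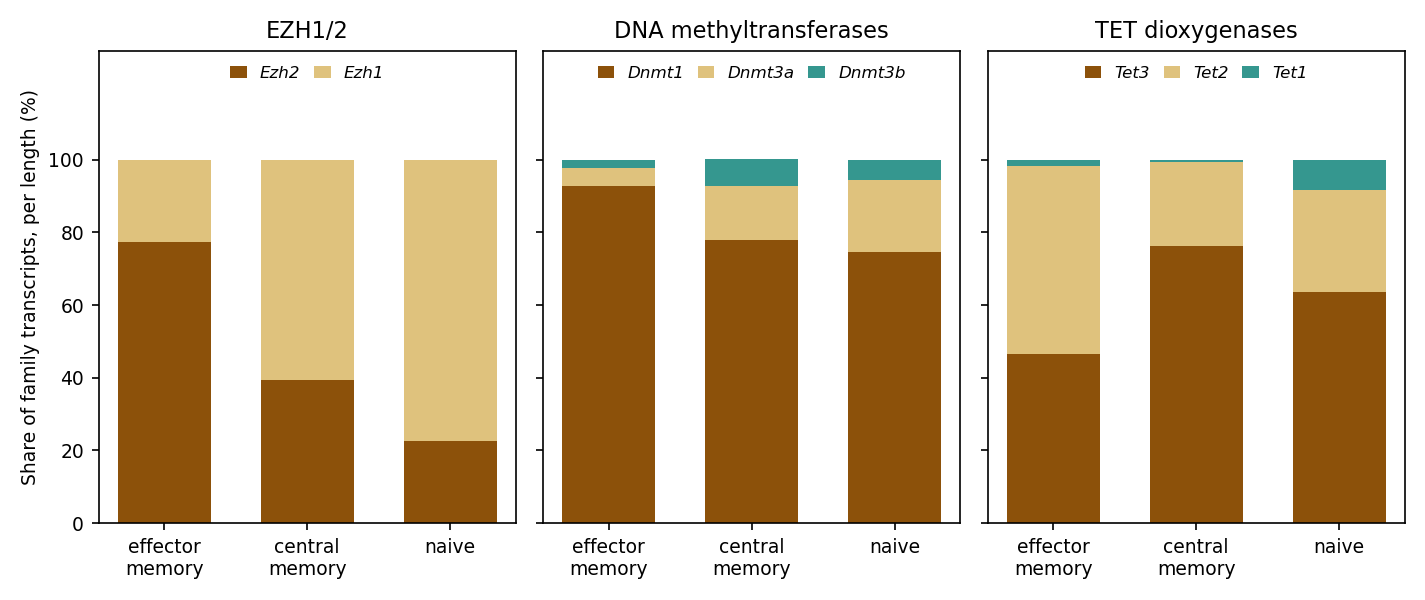
Share of each gene in the transcripts of its family, in percent, from counts divided by the longest transcript, for effector memory, central memory and naive. Ezh2 is 77.4% of the EZH pair in effector memory against 22.6% in naive, and Tet1 shrinks to 1.61% of the TET genes in effector memory.

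Of the catalytic subunits of PRC2, Ezh2 rose and Ezh1 was not called. Ezh2 (ENSMUSG00000029687.16, chromosome 6, 47530139 to 47595341) had 7838 counts (245 CPM) in effector memory and 2684 counts (74.9 CPM) in central memory, against 607 counts (21.8 CPM) in naive. The libraries stood in the same order as for Uhrf1 and Dnmt1. Ezh2 was 11.2-fold higher in effector memory than in naive (interval 10.3 to 12.2) and 3.43-fold higher in central memory than in naive (interval 3.14 to 3.76). Effector memory stood 3.27-fold above central memory (interval 3.13 to 3.42).

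Ezh1, the paralog typical of resting cells (ENSMUSG00000006920.14, chromosome 11, 101191115 to 101226463), had 3453 counts (108 CPM) in effector memory and 6262 counts (175 CPM) in central memory, against 3142 counts (113 CPM) in naive. Central memory was the high library. The ratio of effector memory to naive was 0.956, with an interval whose upper end was 1.0, and that of central memory to naive was 1.55 (interval 1.48 to 1.62). No difference of Ezh1 reached 2-fold.

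Of the counts of both genes, Ezh2 made up 69.4% in effector memory (7838 of 11291, exact interval 68.6% to 70.3%) and 30.0% in central memory (2684 of 8946, interval 29.1% to 31.0%), against 16.2% in naive (607 of 3749, interval 15% to 17.4%). Per length these shares were 77.4% and 39.3%, against 22.6% in naive. Ezh2 was thus the major transcript of the pair in effector memory and the minor one in central memory and naive. The ratio of Ezh2 to Ezh1 was 11.7 times higher in effector memory than in naive (interval 10.7 to 12.9), 2.22 times higher in central memory than in naive (interval 2.01 to 2.45) and 5.30 times higher in effector than in central memory (interval 4.99 to 5.63).

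The other core subunits of PRC2 did not share this range. Eed, which binds the methylated histone, was at 72.2 CPM in effector memory and 57.5 CPM in central memory, against 70.3 CPM in naive. Suz12, the scaffold, was at 259 CPM in effector memory and 109.7 CPM in central memory, against 174 CPM in naive, and its only call was 2.36-fold higher in effector than in central memory. The ratio of Ezh2 to Eed counts was 10.9 times higher in effector memory than in naive (interval 9.89 to 12.1), and that of Ezh2 to Suz12 was 7.55 times higher (interval 6.90 to 8.26). Of the 10 measured PRC2 genes besides Ezh1 and Ezh2, 2 were higher, 1 was lower and 7 passed in neither direction in effector memory against naive. The shares over all genes tested were 22.3% higher and 15.6% lower. Phf19, an accessory subunit that brings PRC2 to chromatin, was at 39.4 CPM in effector memory and 13.7 CPM in central memory, against 1.65 CPM in naive. It was 23.8-fold higher in effector memory than in naive and 8.29-fold higher in central memory than in naive. Its relative Phf1 was at 33.2 CPM in effector memory and 125 CPM in central memory, against 182 CPM in naive, and was lower in effector memory than in naive by 5.48-fold. Epop, another accessory subunit, was 2.12-fold higher in effector memory and 2.16-fold higher in central memory than in naive.

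Of 6 measured lysine 27 demethylases and H2A deubiquitinases, 0 were higher and 1 was lower than in naive in each memory library. The shares over all genes tested were 22.3% higher and 15.6% lower in effector memory, and 11.2% and 5.12% in central memory. The lower gene in both was the demethylase Kdm6b, at 25 CPM in effector memory and 36.7 CPM in central memory, against 111 CPM in naive. It was lower than in naive by 4.42-fold in effector memory and by 3.01-fold in central memory. Kdm6a was at 55.5, 80.0 and 85.5 CPM in effector memory, central memory and naive and was not called. The ratio of Ezh2 to Kdm6b counts was 49.7 times higher in effector memory than in naive (interval 44.4 to 55.7) and 10.3 times higher in central memory than in naive (interval 9.27 to 11.5).

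Polycomb repressive complex 1 (PRC1), which reads the lysine 27 mark and ubiquitinates histone H2A, had 21 measured genes. In effector memory against naive 1 was higher, 4 were lower and 16 passed in neither direction, with a median log2 ratio of -0.53. In central memory against naive 3 were higher and none lower, with a median of 0.05. Over all genes, 22.3% were higher and 15.6% lower in the first comparison, and 11.2% and 5.12% in the second. Pcgf2 was 17.9-fold higher in effector memory and 17.3-fold higher in central memory than in naive, from 1.01 CPM in naive. Its paralog Bmi1 was at 33.2 CPM in effector memory and 39.9 CPM in central memory, against 76.1 CPM in naive, lower in effector memory than in naive by 2.29-fold. Cbx7, a subunit that binds the lysine 27 mark, was at 69.4 CPM in effector memory and 284 CPM in central memory, against 231 CPM in naive. It was lower in effector memory than in naive by 3.32-fold and lower than in central memory by 4.09-fold. The E3 ligase Rnf2 was lower in effector memory than in naive by 2.27-fold.

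**Figure D4:**
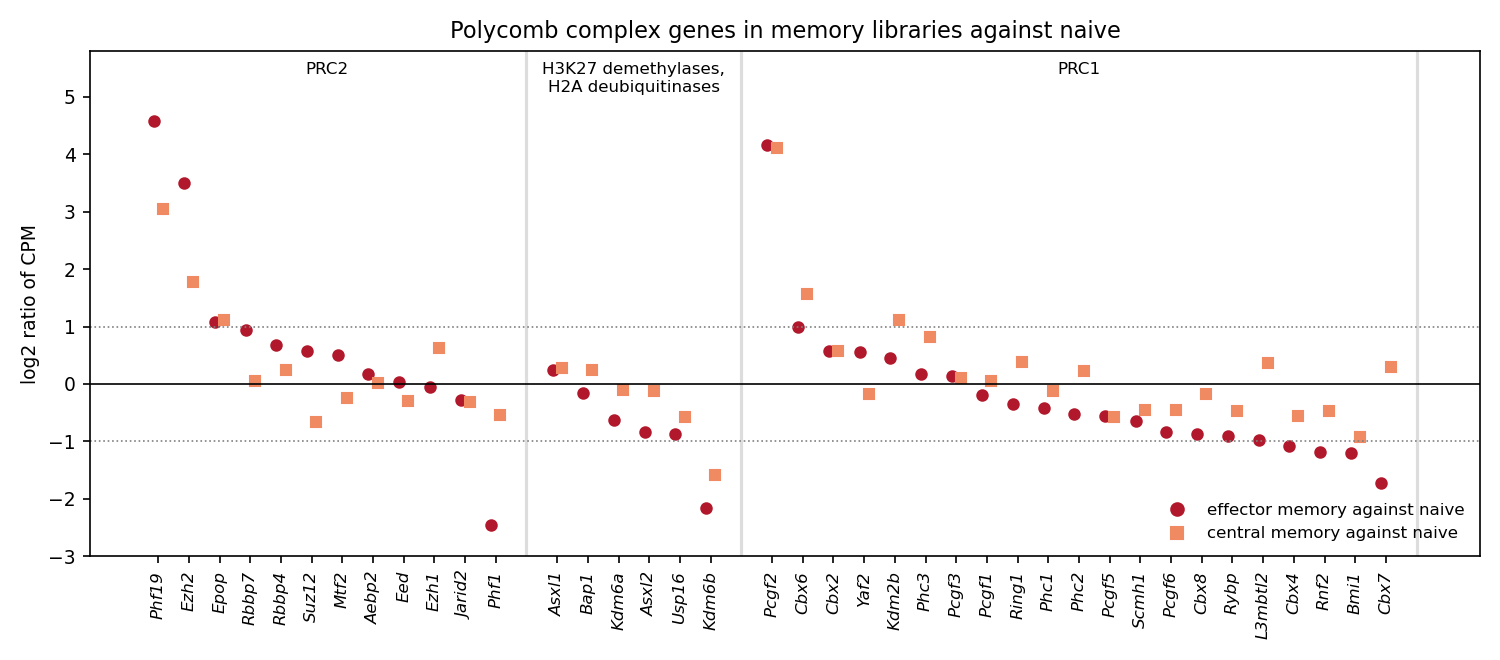
Log2 ratio of CPM for genes of PRC2, of lysine 27 demethylation and H2A deubiquitination, and of PRC1, in effector memory against naive (circles) and central memory against naive (squares); dotted lines mark 2-fold. Phf19, Ezh2 and Pcgf2 stand far above 0, while Phf1, Kdm6b and Cbx7 lie below the lower line in effector memory against naive.

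Suv39h1 (ENSMUSG00000039231.18, chromosome X, 8061171 to 8074760) had 4365 counts (136 CPM) in effector memory and 2306 counts (64.4 CPM) in central memory, against 1413 counts (50.8 CPM) in naive. Effector memory was the high library, 2.69-fold above naive (interval 2.53 to 2.86) and 2.12-fold above central memory (interval 2.02 to 2.23), both calls that ended with housekeeping scaling. The ratio of central memory to naive was 1.27 (interval 1.19 to 1.36). Its paralog Suv39h2 was at 13.2 CPM in effector memory and 5.72 CPM in central memory, against 4.42 CPM in naive, and was 2.98-fold higher in effector memory than in naive. The balance between the paralogs moved little. Suv39h1 made up 91.2% of their counts in effector memory (interval 90.4% to 92.0%) and 91.8% in central memory (interval 90.7% to 92.9%), against 92.0% in naive (interval 90.5% to 93.3%).

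There were 11 measured genes of lysine 9 methylation and heterochromatin protein 1 besides Suv39h1. In effector memory against naive 4 were higher and 2 lower, beside 22.3% and 15.6% of all genes tested. None was called in central memory against naive, beside 16.3% of all genes. Cbx5, heterochromatin protein 1 alpha, was at 448 CPM in effector memory and 172 CPM in central memory, against 127 CPM in naive, 3.52-fold higher in effector memory than in naive. Atf7ip, a cofactor of the methyltransferase SETDB1, was lower in effector memory than in naive by 3.48-fold. Of 8 measured lysine 9 demethylases none was called in effector memory against naive, beside 37.9% of all genes tested. None of these was called in central memory against naive or in effector against central memory either, beside 16.3% and 27.6%. Kdm4d, also on that list but under the 5 CPM limit, had 73 counts (2.28 CPM) in effector memory and 152 counts (4.24 CPM) in central memory. It had 0 in naive.

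Set beside proliferation genes, the enzymes that rose divided. In effector memory against naive the 20 DNA replication genes had a median log2 ratio of 2.88 and ranged from 1.24 to 8.63. Uhrf1, at 5.82, was above 17 of them, and Ezh2, at 3.49, was above 13. Dnmt1, at 1.48, and Suv39h1, at 1.43, were each above 1 of them. In central memory against naive the median of 19 measured replication genes was 1.15. Uhrf1, at 3.44, was above 16 of these and Ezh2, at 1.78, above 14, while Dnmt1 and Suv39h1 were each above 1 of them. In the same comparison Dnmt3b, at 0.72, was above 3, Ezh1, at 0.63, above 2 and Tet3, at 0.27, above 1. Dnmt1, at 0.39, and Suv39h1, at 0.34, thus did not stand apart from these enzymes there. The mitosis genes ranged higher, from 5.20 to 12.22 in effector memory against naive, and Uhrf1 was above 3 of those 20 while no other enzyme was above any. The 6 enzymes other than Uhrf1, Ezh2, Dnmt1 and Suv39h1 lay below all 20 replication genes in effector memory against naive.

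**Figure D5:**
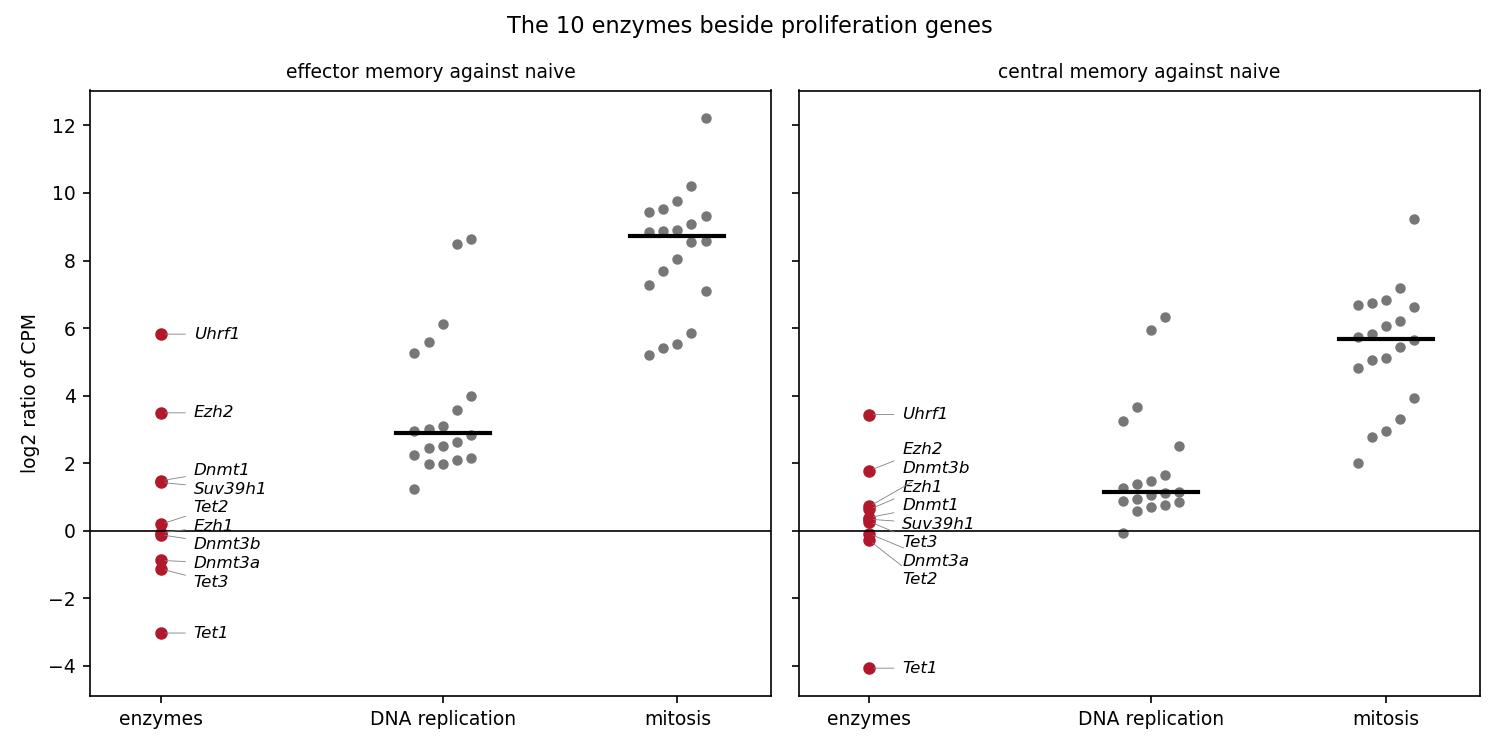
Log2 ratio of CPM of the 10 enzymes, of DNA replication genes and of mitosis genes in effector memory against naive (left) and central memory against naive (right), 1 point per gene with list medians as bars. Uhrf1 and Ezh2 lie within the range of replication genes, Dnmt1 and Suv39h1 at its lower end, and Tet1 below all of them.

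The E2F family, whose members regulate replication genes, was read because of the promoter letters shown above. There were 13 measured E2F, DP and retinoblastoma family genes. In effector memory against naive 6 were higher and 1 lower, beside 22.3% and 15.6% of all genes tested. In central memory against naive 6 were higher and none lower, beside 11.2% and 5.12%. Their part in the levels of the enzymes was not tested. E2f1, an activator, was at 64.4 CPM in effector memory and 17.9 CPM in central memory, against 1.47 CPM in naive. Of the atypical repressors, which naive cells lacked in counts, E2f7 was at least 437-fold higher in effector memory and E2f8 at least 961-fold higher (floor of 3 counts in the naive library). E2f5 was lower in effector memory than in naive by 3.49-fold.

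The order of the 10 enzymes by level, per length of the longest transcript and in TPM (counts per length, scaled to the same sum in every library), differed between libraries. In effector memory it ran from Uhrf1 (285 TPM) and Dnmt1 (279 TPM) through Ezh2 (207 TPM) and Suv39h1 (103 TPM) down to Dnmt3b (6.90 TPM) and Tet1 (0.885 TPM). In central memory Dnmt1 (149 TPM) and Ezh1 (111 TPM) led, and Tet1 (0.489 TPM) was last. In naive Dnmt1 (123 TPM), Ezh1 (77.6 TPM) and Tet3 (69.0 TPM) led. The last places there were held by Dnmt3b (9.26 TPM), Tet1 (8.89 TPM) and Uhrf1 (6.20 TPM), and Dnmt3b and Tet1 did not differ beyond counting error (ratio 1.04, interval 0.929 to 1.17). Uhrf1 was thus the lowest of the 10 in naive and the highest in effector memory with the longest transcript or the merged exons as length. The order turned in many places with the median transcript length. In effector memory Ezh2 (283 TPM) then led, Uhrf1 (129 TPM) was the fourth and Dnmt3b (3.10 TPM) the last. In central memory Ezh1 (229.7 TPM) and Dnmt3a (135 TPM) led and Dnmt1 (66.8 TPM) was the fifth. In naive Ezh1 (159 TPM), Dnmt3a (153 TPM) and Tet1 (84.9 TPM) led and Dnmt1 (54.7 TPM) was the fifth. Levels of different enzymes in a library are therefore uncertain here, while Uhrf1 was last in naive and Tet1 last in central memory under all 3 lengths.

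Members were compared by the distance between their pairs of log2 ratios to naive, over 3 libraries. The smallest distances were those of Dnmt1 and Suv39h1 (0.07), of Dnmt3b and Ezh1 (0.11), and of Dnmt3a and Tet3 (0.44). The last of these pairs was not close, since 403 genes lay within 0.25 of Dnmt3a and 121 within 0.25 of Tet3. Among 7921 other named genes with at least 20 CPM in a library and a count in each, those nearest to Uhrf1 were Cenpm (0.054), Pde4a (0.110) and Plk1 (0.127), and 6 genes lay within 0.25. Those nearest to Ezh2 were Cchcr1 (0.077), Brca2 (0.085) and Incenp (0.113), with 11 genes within 0.25. Those nearest to Tet1 were Dusp1 (0.268), Rgcc (0.390) and Sh3pxd2a (0.401), with 0 genes within 0.25. The patterns of the others were common. Dnmt1 had 138 genes within 0.25, led by Polr1d, Bcr and Dgkh, and Suv39h1 had 137, led by Ccdc181, Tdg and Cnot9. Tet3 had 121, led by Crebrf, Mcl1 and Crtc1, and Dnmt3b had 140, led by Gimap4, Tshz1 and Dcakd. Dnmt3a had 403, led by Ddx6, Gpatch2l and Gba2. Tet2 had 276, led by Trappc6b, Rmdn3 and Mrto4, and Ezh1 had 207, led by Rbck1, Riox1 and Fbxo21.

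Of the 10 genes, 4 share exon bases with an annotated gene on the opposite strand, none of which is in the count table. These are Suv39h1 (767 bases), Ezh2 (174 bases), Dnmt3a (133 bases) and Tet2 (43 bases). Whether counting used strand is not given in the sources used here, so reads from either strand could not be told apart at those bases.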

How the data were processed

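The data are RNA-seq read counts per gene symbol for 3 libraries, deposited by the authors as whole-number counts in 1 table with 1 column per group. Tools listed in the submitters' processing notes are featureCounts 1.5.0-p3, HISAT2 2.0.5 and CASAVA, with the build mm10. Annotation, strand setting and treatment of reads with several hits: not given in the sources used here. The columns TN, TCM and TEM were read as naive, central memory and effector memory from their abbreviations.

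Counts were scaled to CPM by TMM factors (edgeR 4.0.16, R 4.3.3), at 0.967 for effector memory, 0.999 for central memory and 1.04 for naive, over the whole table. Ratios between libraries have exact conditional (Clopper-Pearson) 95% intervals. Ratios of ratios have normal intervals of their log, from counting error. The calling rule and the intervals were tested on simulated counts drawn with counting error only. Variation between libraries and a broad shift of levels were not simulated, so the calls were not tested against them. Shares of counts have exact binomial intervals. Lengths and coordinates are from GENCODE M21 (GRCm38), which matched 98.7% of the symbols. The members, the gene lists and the rules were chosen with earlier results of these data known. Named genes were the 10 enzymes, up to 4 called genes with the largest ratio from each list and comparison, a fixed set of partners, and the 3 nearest patterns. Some genes that this rule takes are not printed. Usp7, Dnmt3l, Kdm4d, Gadd45b, Idh2, Trbv12-1 and single marker genes were named as context after their values were seen. Ratios and calls were repeated with size factors of DESeq2 1.42.0, with total counts and with upper quartile scaling, and calls with minimum levels of 1 and 20 CPM, minimum ratios of 1.5 and 4. Other lengths, the mitosis list and housekeeping scaling were further alternatives. The last of these, and merged exons as length, were added after the data were examined. Scripts ran under Python 3.11.15 with pandas 2.3.3, SciPy 1.17.1, NumPy 2.4.6 and matplotlib 3.10.9.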

Additional observations from a re-analysis of the deposited data

How the results depend on the processing

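No paired analysis was possible because each group has 1 library, and for the same reason no replicate could be left out. Depth was no limit for the 10 enzymes, whose lowest count was 94. The counts of enzymes called kept within 1.5 times under total counts, DESeq2 and upper quartile scaling and at minimum levels of 1 and 20 CPM, although at 20 CPM the call of Tet1 in effector against central memory was also lost. At a minimum ratio of 4, effector memory against naive had 2 enzymes higher and 1 lower. Central memory against naive then had 1 higher and 1 lower, and effector against central memory 1 higher and 0 lower. At a minimum ratio of 1.5, effector memory against naive had 4 higher and 3 lower. Central memory against naive then had 4 higher and 1 lower, and effector against central memory 5 higher and 4 lower. Shares over all genes at these ratio limits are not given here, so these counts show only how the calls depend on the limit. With housekeeping scaling, effector memory against naive had 2 higher, and effector against central memory had 2 higher and 4 lower. The cause was not tested beyond what these rules set by construction. No enzyme with a call changed direction under any of the 4 other scalings. Of the 120 ratios under these scalings, 63 moved outside their counting interval. Counts per longest transcript in place of raw counts gave shares in effector memory, central memory and naive of Ezh2 77.4%, 39.3% and 22.6%; Dnmt1 92.9%, 77.8% and 74.6%; Dnmt3a 4.80%, 14.9% and 19.8%; Dnmt3b 2.30%, 7.38% and 5.62%; Tet1 1.61%, 0.483% and 8.19%; Tet2 51.8%, 23.1% and 28.3%; and Tet3 46.6%, 76.4% and 63.5%. The 2 enzymes above the median of the DNA replication genes in each of the 3 comparisons became 0 with the mitosis genes in its place. Levels per length moved outside counting error in 59 of 60 values with the median transcript or the merged exons as length.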

Other observations

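Genes that Polycomb or DNA methylation is known to silence were read from 2 further lists. Of 26 Hox and developmental genes, 19 had no count in effector memory, 20 had none in central memory and 19 had none in naive. Cdkn2a, the INK4A and ARF gene and a textbook Polycomb target, had 437 counts (13.7 CPM) in effector memory and 46 counts (1.28 CPM) in central memory, against 0 in naive. It was at least 127-fold higher in effector memory than in naive and at least 11.9-fold higher in central memory than in naive (against a floor of 3 counts in the naive library), and 10.6-fold higher in effector than in central memory (interval 7.84 to 14.8). Its neighbour Cdkn2b, a related inhibitor, had 131 counts in effector memory and 3 in central memory, against 0 in naive. Several Hoxa genes, which encode homeodomain factors, had counts in naive only or nearly so. Hoxa7 had 2 counts in effector memory and 0 in central memory, against 113 (4.06 CPM) in naive. Hoxa5 had 0 in both memory libraries, against 59 (2.12 CPM) in naive, and Hoxa3 had 0 in both, against 32 (1.15 CPM) in naive. Hoxb4 was detected in all 3, at 1.28 CPM in effector memory and 2.46 CPM in central memory, against 1.33 CPM in naive. These low genes fell under the 5 CPM limit, apart from Cdkn2a in effector memory, and were singled out after their values were seen.

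Of 16 germline genes that DNA methylation silences in somatic cells, 11 had no count in effector memory, 12 had none in central memory and 13 had none in naive, and none reached 5 CPM. Brdt, a testis bromodomain gene, stood highest, with 146 counts (4.57 CPM) in effector memory and 44 counts (1.23 CPM) in central memory, against 45 counts (1.62 CPM) in naive. Dazl, a germ cell RNA-binding protein gene, had 6 counts in effector memory and 0 in central memory and naive. Both were singled out after their values were seen. DNA and histone methylation were not measured in these libraries.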
